A study of Mus musculus with 16 samples.

Results

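The 10 genes described here encode the parts of the inflammasomes, the cytosolic complexes through which macrophages turn on IL-1 release and lytic death. They were taken by symbol from a count table of 22287 genes: the sensors Nlrp3, Nlrp1b, Nlrc4, Aim2, Naip2 and Naip5, the adaptor Pycard, the caspases Casp1 and Casp4, and the pore former Gsdmd. All 10 passed edgeR's expression filter, which kept 12514 genes. RNA-seq was done on macrophages grown from the bone marrow of C57BL/6J mice aged 8 weeks, which carried no allele named in the labels. The cells were cultured for 7 days with GM-CSF (GM) or M-CSF (M) on tissue culture treated dishes (TC) or untreated dishes (noTC), and were harvested at steady state or after 3 h of LPS, the endotoxin of Gram-negative bacteria. This gave 8 groups of 2 libraries, named by growth factor and dish (GM-TC and GM-noTC, and likewise for M), with LPS added to the name where the cells received it. GM and M cells were seeded at different densities, so the growth factor and the density cannot be told apart. The libraries of a group are described as biological replicates. Whether they came from separate mice is not given in the sources used here. The p-values therefore measure the spread between libraries within groups, estimated over all 8 groups together.

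Total counts lay between 17527806 and 31458368 per library, where 3 counts equal 0.0954 to 0.171 CPM (counts scaled to a common library size). This floor covers counting error only. Levels are given as CPM scaled with edgeR's TMM factors, as replicate 1 and replicate 2 of a group. Differences are log2 fold changes with their standard error (SE) from edgeR's quasi-likelihood test over all 16 libraries, and a gene was called at an adjusted p (Benjamini-Hochberg over 12514 genes) under 0.05. Expression within a culture was measured in bulk, so fewer cells of a type and less RNA per cell cannot be told apart. All 8 macrophage markers examined, Adgre1, Csf1r and Cd68 among them, were above 1 CPM in each group. Their levels differed between growth factors. Adgre1 (mean 221 CPM in GM-TC and 824 CPM in M-TC), Csf1r, Cd68, Cd14 and Fcgr1 were lower in GM-TC than in M-TC. Itgam (1873 and 733 CPM), Lyz2 and Mertk were higher. The GM-TC libraries stood apart from one another more than those of any other group, with a chi-square per degree of freedom of 12.9 against 1.92 to 5.27 in the other 7 groups. The SE of a comparison with GM-TC rests on the spread shared by all groups and not on that of GM-TC alone.

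Inflammasome assembly begins with a sensor. NLRP3 responds to potassium efflux and membrane damage, AIM2 binds double-stranded DNA in the cytosol, and NLRP1B senses anthrax lethal factor in some mouse strains. The NAIP proteins bind bacterial ligands directly, NAIP5 flagellin and NAIP2 the inner rod of type III secretion systems, and then assemble with NLRC4. Pycard encodes ASC, the adaptor that links NLRP3 and AIM2 to pro-caspase-1. Caspase-1 cleaves pro-IL-1β, pro-IL-18 and gasdermin D, whose N-terminal part forms pores in the plasma membrane. Mouse Casp4 encodes caspase-11, which binds LPS in the cytosol and cleaves gasdermin D without a separate sensor. Transcription of Nlrp3 and Il1b after a Toll-like receptor signal is known as priming, the step that an LPS treatment of this kind supplies. RNA levels do not show whether a complex assembled or a substrate was cleaved, and neither was measured here.

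The 250 bases before the transcription start are shown for the genes with the largest changes upon LPS challenge, Nlrp3 and Casp4, which rose, and Nlrp1b, which fell. The sequences are those of RefSeq on GRCm38.p6, 5′ to 3′ along the gene, with motif matches in capitals. The table of promoters held 9 of the 10 genes, Gsdmd being the one without an entry, and 12 starts in all, with a second start for Nlrp3, Casp4 and Nlrp1b.
Nlrp3, chr11:59541319-59541568, plus strand: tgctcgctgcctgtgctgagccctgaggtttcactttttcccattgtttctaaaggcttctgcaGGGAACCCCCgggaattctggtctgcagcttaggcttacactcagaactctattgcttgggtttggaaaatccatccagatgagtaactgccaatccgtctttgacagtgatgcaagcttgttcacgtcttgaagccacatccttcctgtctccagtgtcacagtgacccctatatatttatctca
Casp4, chr9:5308599-5308848, plus strand: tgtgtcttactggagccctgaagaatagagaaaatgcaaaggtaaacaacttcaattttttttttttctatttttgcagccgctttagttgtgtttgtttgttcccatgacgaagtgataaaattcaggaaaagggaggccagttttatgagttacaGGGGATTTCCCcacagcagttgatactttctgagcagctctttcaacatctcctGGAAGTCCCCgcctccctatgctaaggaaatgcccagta
Nlrp1b, chr11:71230734-71230983, minus strand: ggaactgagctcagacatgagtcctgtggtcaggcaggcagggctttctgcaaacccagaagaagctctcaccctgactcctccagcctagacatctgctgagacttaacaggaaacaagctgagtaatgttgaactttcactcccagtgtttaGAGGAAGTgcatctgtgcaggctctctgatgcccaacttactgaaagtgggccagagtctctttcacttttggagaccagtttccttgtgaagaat
Both strands were searched for an NF-kB site, an interferon-stimulated response element (GAAA, any 2 bases, GAAA), a gamma-activated sequence (TTC, any 3 bases, GAA), a PU.1 motif (GAGGAAGT) and a TATA box (TATAAA). The capitals mark an NF-kB site at bases -186 to -177 of Nlrp3. In Casp4 they mark a pair of overlapping NF-kB sites between -93 and -83 and 1 more on the other strand at -39 to -30. In Nlrp1b they mark a PU.1 motif at -96 to -89. The start with a match is the one shown for Nlrp3 and Nlrp1b, and the other start of each gene held no match to any motif searched. Of all 32851 promoters in the table, 7.25% held an NF-kB site and 2.44% the PU.1 motif in a window of the same length. A TATA box was held by 12.4%, the interferon-stimulated element by 2.98% and the gamma-activated element by 7.02%, so a lack of the last 2 is common. Among the other 6 genes with a promoter, Naip5 held an NF-kB site and a TATA box, and Aim2 and Pycard each held a PU.1 motif. Casp1, Nlrc4 and Naip2 held no match, and no promoter of the 9 genes held the interferon-stimulated or gamma-activated element. A match describes letters and is not evidence of binding.

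Upon LPS challenge, 5 of the 10 genes moved more than 2-fold in all 4 cultures with TMM scaling. Nlrp3, Casp4, Aim2 and Casp1 rose, Nlrp1b fell, and the rest moved less or in different directions in GM and M cells. In GM-TC, 7 genes rose and 3 fell, where 67% of all tested genes were called (32.8% higher and 34.2% lower). GM-noTC gave the same counts, against 67.7% of all genes (33.6% higher and 34% lower). In M-TC, 7 rose and 2 fell, against 74% (37.6% higher and 36.4% lower). In M-noTC, 6 rose and 2 fell, against 72.3% (36.4% higher and 35.9% lower). A call by itself is therefore common in these comparisons, and the size of a change says more. Above 2-fold, 4 genes were higher in GM-TC and in GM-noTC, where 13.4% and 13.1% of all genes were. In M-TC and M-noTC it was 5 genes against 17.3% and 15.9%. More than 2-fold lower were 2 genes in GM-TC and 1 in GM-noTC, against 12.7% and 12.6% of all genes. In M-TC it was 1 gene and in M-noTC 2 genes, against 18.5% and 16.3%. The share of all genes beyond 2-fold in all 4 cultures was not counted. Under library size only in place of TMM, the median log2 fold change of all genes shifted to -0.53 in GM and -0.83 in M cells on TC and to -0.54 and -0.73 on noTC, against -0.051 to -0.0061 with TMM. Under that scaling Casp1 in GM-noTC, at 0.97, and Gsdmd in M-TC and M-noTC, at 0.72 and 0.65, were below 2-fold. All changes are therefore relative to the median gene, and those that turn with this choice are named with their gene.

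**Figure D1:**
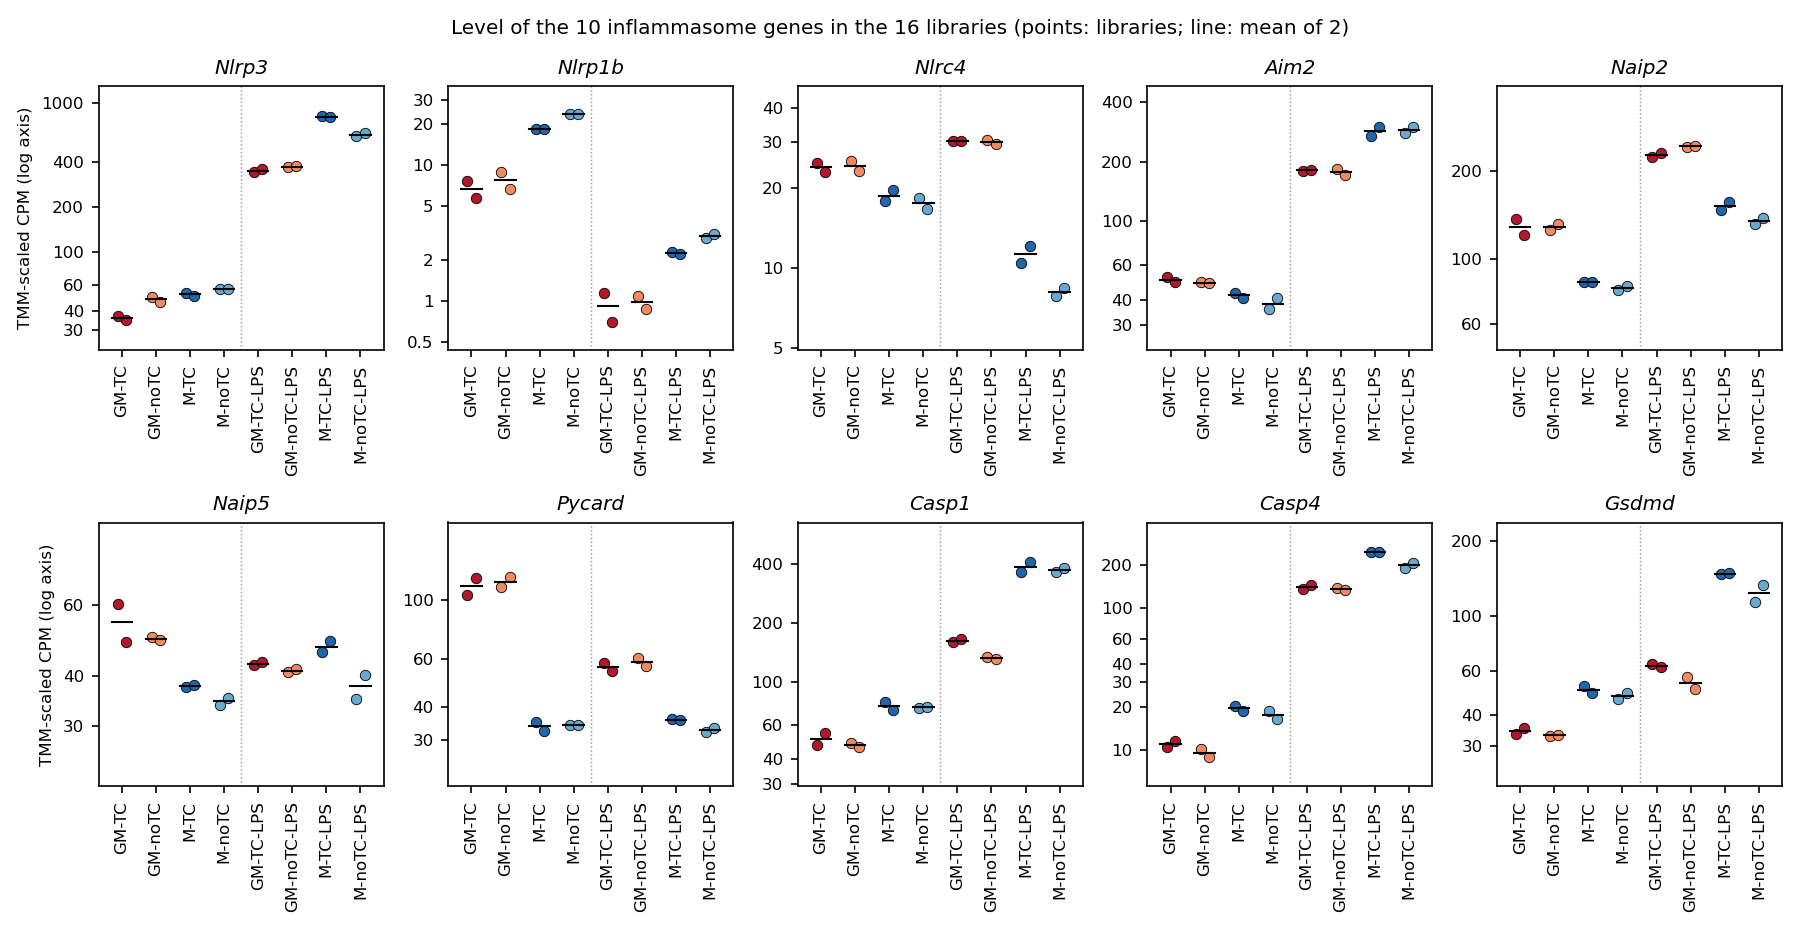
Level of each of the 10 genes (TMM-scaled CPM, log axis) in the 8 groups; points are the 2 libraries of a group, the line is their mean, and the dotted line separates steady state from LPS. Nlrp3, Aim2, Casp1 and Casp4 are higher in each LPS library than in any steady-state library, Nlrp1b is lower, and Nlrc4 goes up in GM and down in M on this scale, its rise in GM turning under library size only.

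Nlrp3 had the largest rise among the sensors. At steady state it had 37.1 and 35.1 CPM in GM-TC, 53.0 and 50.7 CPM in M-TC, 49.6 and 46.2 CPM in GM-noTC and 56.0 and 56.6 CPM in M-noTC. After LPS it had 345 and 360.5 CPM in GM-TC-LPS, 817 and 812 CPM in M-TC-LPS, 372 and 379 CPM in GM-noTC-LPS and 601 and 629 CPM in M-noTC-LPS. No LPS library overlapped a steady-state library, and the M-TC-LPS libraries were the highest of the 16. The log2 fold changes were 3.29 in GM and 3.97 in M cells on TC, and 2.97 in GM and 3.45 in M cells on noTC (SE 0.0517 to 0.0564, adjusted p at most 1.0e-21 from edgeR). Between 3.13% and 3.61% of all tested genes had a larger one in the same culture.

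Aim2, the DNA sensor, rose less in GM than in M cells. Its steady-state level was 52.2 and 49.5 CPM in GM-TC, 43.7 and 41.2 CPM in M-TC, 49.3 and 48.9 CPM in GM-noTC and 36.0 and 40.9 CPM in M-noTC. With LPS it was 179 and 182 CPM in GM-TC-LPS, 269.7 and 297 CPM in M-TC-LPS, 184 and 170.3 CPM in GM-noTC-LPS and 279 and 300.1 CPM in M-noTC-LPS. On this scale the order of the growth factors turned: GM libraries were the higher ones at steady state and the lower ones after LPS, with no overlap between GM and M on the same dish at either time. The log2 fold changes were 1.83 in GM and 2.74 in M cells on TC, and 1.85 in GM and 2.91 in M cells on noTC (SE 0.0672 to 0.0690, adjusted p at most 3.8e-16 from edgeR). In GENCODE M21 Aim2 overlaps Cadm3 on the other strand, and whether the counting used strand is not given in the sources used here.

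With TMM scaling, Nlrp1b was the only sensor of the 6 to fall in all 4 cultures. It had 7.52 and 5.64 CPM in GM-TC, 18.3 and 18.4 CPM in M-TC, 8.80 and 6.61 CPM in GM-noTC and 23.6 and 23.6 CPM in M-noTC at steady state. After LPS it had 1.14 and 0.696 CPM in GM-TC-LPS, 2.26 and 2.21 CPM in M-TC-LPS, 1.09 and 0.867 CPM in GM-noTC-LPS and 2.87 and 3.09 CPM in M-noTC-LPS, which rests on 15 to 62 counts per library. All libraries after LPS lay under all libraries before it. The log2 fold changes were -2.84 in GM and -3.03 in M cells on TC, and -2.97 in GM and -2.98 in M cells on noTC (SE 0.174 to 0.281, adjusted p at most 5.4e-10 from edgeR), and no difference in fold between the growth factors was detectable. The difference of the 2 responses, GM minus M, was 0.19 on TC (95% interval -0.52 to 0.91) and 0.01 on noTC (-0.65 to 0.67).

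Nlrc4, the shared partner of the NAIP proteins, went up slightly in GM cells and down in M cells. Steady-state levels were 24.8 and 23.1 CPM in GM-TC, 17.9 and 19.6 CPM in M-TC, 25.4 and 23.1 CPM in GM-noTC and 18.4 and 16.6 CPM in M-noTC. LPS levels were 30.04 and 30.2 CPM in GM-TC-LPS, 10.4 and 12.1 CPM in M-TC-LPS, 30.4 and 29.3 CPM in GM-noTC-LPS and 7.85 and 8.43 CPM in M-noTC-LPS. The LPS libraries of M cells were the 4 lowest of the 16 and those of GM cells the 4 highest. The log2 fold changes were 0.33 in GM and -0.74 in M cells on TC, and 0.30 in GM and -1.10 in M cells on noTC (SE 0.0832 to 0.104, adjusted p at most 0.0033 from edgeR). The rise in GM cells depended on the scaling. Under library size only it became -0.15 on TC and -0.21 on noTC, still above the median of all genes.

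The 2 NAIP receptors did not move together. Naip2 had 137 and 121 CPM in GM-TC, 83.2 and 83.6 CPM in M-TC, 125 and 132 CPM in GM-noTC and 78.5 and 81.2 CPM in M-noTC. After LPS it had 222 and 230.2 CPM in GM-TC-LPS, 147 and 156 CPM in M-TC-LPS, 241 and 243 CPM in GM-noTC-LPS and 132 and 137 CPM in M-noTC-LPS. The LPS libraries were higher in each culture, and GM libraries were above M libraries at both times. The log2 fold changes were 0.82 in GM and 0.86 in M cells on TC, and 0.91 in GM and 0.75 in M cells on noTC (SE 0.0580 to 0.0601, adjusted p at most 1.5e-10 from edgeR). Under library size only the rise in M cells was 0.033 on TC and 0.029 on noTC and no longer passed.

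Naip5, the flagellin receptor, had 60.3 and 48.6 CPM in GM-TC, 37.6 and 37.9 CPM in M-TC, 49.97 and 49.2 CPM in GM-noTC and 34.0 and 35.2 CPM in M-noTC. With LPS it had 42.6 and 43.2 CPM in GM-TC-LPS, 45.9 and 48.8 CPM in M-TC-LPS, 41.0 and 41.6 CPM in GM-noTC-LPS and 35.1 and 40.2 CPM in M-noTC-LPS. GM libraries were above M libraries at steady state, and after LPS the highest were those of M-TC-LPS. Its log2 fold change was -0.34 (SE 0.0821, adjusted p = 0.001) in GM and 0.32 (SE 0.0833, adjusted p = 0.0014) in M cells on TC. On noTC it was -0.26 (SE 0.0817, adjusted p = 0.0069) in GM and 0.12 (SE 0.0834, adjusted p = 0.2) in M cells, the last of which did not pass. Both M values turned to -0.50 and -0.60 under library size only. The fall in GM-TC rested on replicate 1 (without it -0.16, adjusted p = 0.064), and that in GM-noTC did not pass without GM-noTC replicate 1 (adjusted p = 0.061). Reads can be split between NAIP paralogs. Of the 50-base windows, 19.1% of those of Naip2 and 36.8% of those of Naip5 also occur in transcripts of other genes. Naip2 shared 9.4% of its windows with Naip5, and Naip5 shared 22.3% with Naip6. Naip1 and Naip3 were also among the sharing genes. Counts of Naip2 and Naip5 were not whole in 13 and 15 of the 16 libraries. The part of shared reads in these responses was not tested.

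Pycard, the ASC adaptor, fell in GM cells, from a level far above that of M cells. It had 105 and 121 CPM in GM-TC, 34.9 and 32.4 CPM in M-TC, 112 and 122 CPM in GM-noTC and 34.2 and 34.1 CPM in M-noTC. With LPS it had 58.0 and 54.4 CPM in GM-TC-LPS, 35.8 and 35.6 CPM in M-TC-LPS, 60.8 and 56.6 CPM in GM-noTC-LPS and 32.2 and 33.1 CPM in M-noTC-LPS. Even after the fall, the GM libraries stayed above all M libraries. The log2 fold change was -1.01 (SE 0.0701, adjusted p = 2.2e-11) on TC and -0.99 (SE 0.0691, adjusted p = 2.2e-11) on noTC. In M cells it was 0.084 on TC (95% interval -0.08 to 0.25) and -0.065 on noTC (-0.23 to 0.10), and neither passed. Under library size only the M values were -0.74 and -0.79, close to the median of all genes under that scaling. Gm45205 overlaps Pycard on the other strand in GENCODE M21.

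Both caspases rose in all 4 cultures. Casp1 and Casp4 are neighbours on chromosome 9 (GRCm38, chr9:5298517-5307265 and chr9:5308828-5336783, both on the plus strand). Casp1 had 47.3 and 54.4 CPM in GM-TC, 78.7 and 71.9 CPM in M-TC, 48.6 and 46.5 CPM in GM-noTC and 73.8 and 74.3 CPM in M-noTC. After LPS it had 159.9 and 166 CPM in GM-TC-LPS, 367 and 411 CPM in M-TC-LPS, 135 and 131 CPM in GM-noTC-LPS and 367 and 384 CPM in M-noTC-LPS. The M libraries with LPS lay above all others. Its log2 fold changes were 1.68 in GM and 2.37 in M cells on TC, and 1.48 in GM and 2.34 in M cells on noTC (SE 0.0646 to 0.0695, adjusted p at most 1.8e-14 from edgeR).

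Casp4, which encodes the LPS-binding caspase-11, had the largest fold of the 10 genes in both GM cultures. It had 10.4 and 11.6 CPM in GM-TC, 20.3 and 18.8 CPM in M-TC, 10.1 and 8.87 CPM in GM-noTC and 18.9 and 16.5 CPM in M-noTC at steady state. LPS brought it to 134 and 144 CPM in GM-TC-LPS, 248 and 247 CPM in M-TC-LPS, 137 and 132 CPM in GM-noTC-LPS and 191 and 206 CPM in M-noTC-LPS. The lowest LPS library was far above the highest steady-state library. Its log2 fold changes were 3.65 in GM and 3.66 in M cells on TC, and 3.83 in GM and 3.496 in M cells on noTC (SE 0.0728 to 0.0878, adjusted p at most 3.6e-20 from edgeR). In M-TC the fold of Nlrp3 was larger. In M-noTC the folds of Casp4 and Nlrp3 were close, and without M-noTC replicate 2 their order turned (3.40 for Casp4 and 3.47 for Nlrp3).

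Gsdmd, the substrate of both caspases, rose less than either. It had 33.4 and 35.5 CPM in GM-TC, 51.9 and 48.9 CPM in M-TC, 32.9 and 33.1 CPM in GM-noTC and 46.1 and 48.6 CPM in M-noTC. With LPS it had 64.0 and 61.9 CPM in GM-TC-LPS, 146 and 148 CPM in M-TC-LPS, 56.4 and 50.8 CPM in GM-noTC-LPS and 113 and 132 CPM in M-noTC-LPS. Within each culture the LPS libraries were higher, and the GM-LPS libraries still lay near the steady-state level of M cells. The log2 fold changes were 0.87 in GM and 1.54 in M cells on TC, and 0.70 in GM and 1.37 in M cells on noTC (SE 0.0688 to 0.0760, adjusted p at most 3.9e-08 from edgeR).

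**Figure D2:**
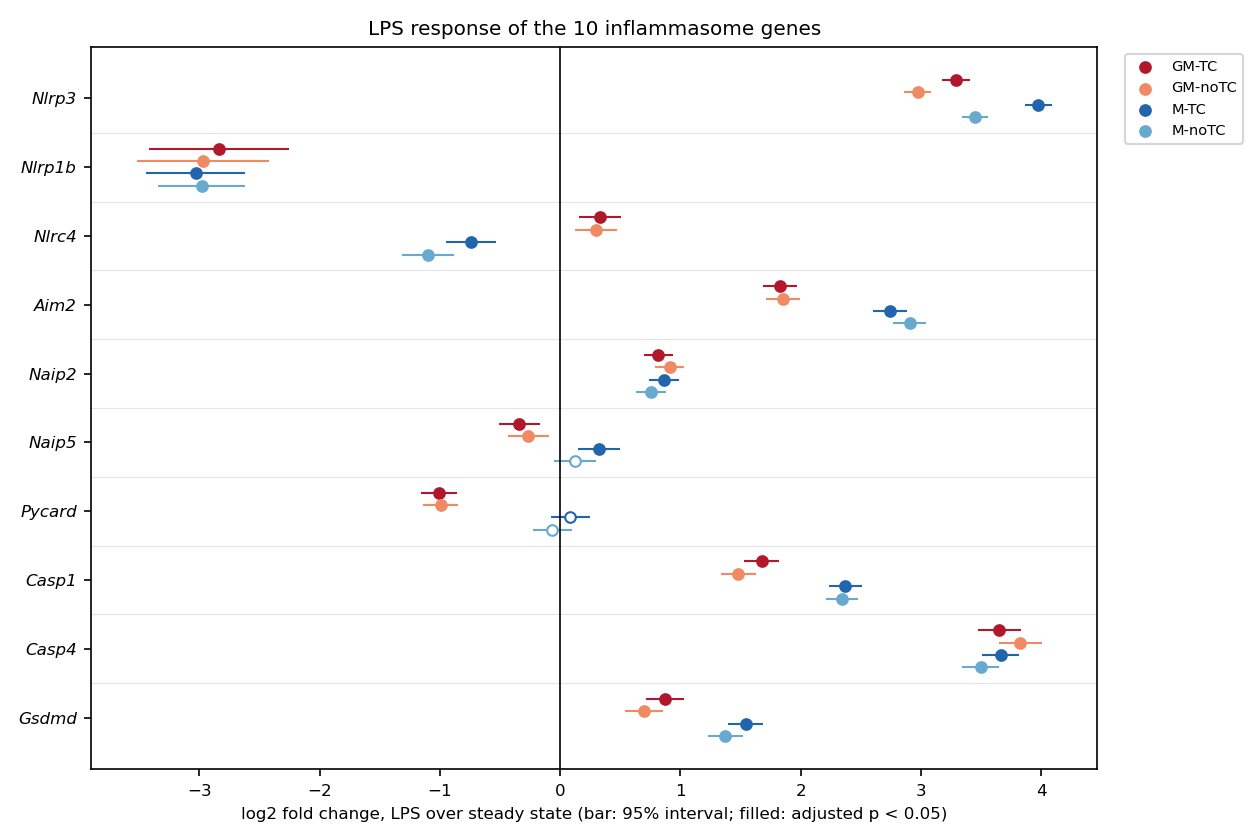
Log2 fold change upon LPS (x axis) for each gene in the 4 cultures, with 95% intervals; filled points have an adjusted p under 0.05. Nlrp3 and Casp4 lie between 2.97 and 3.97, and Nlrc4, Naip5 and Pycard lie on either side of 0 or near it.

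**Figure D3:**
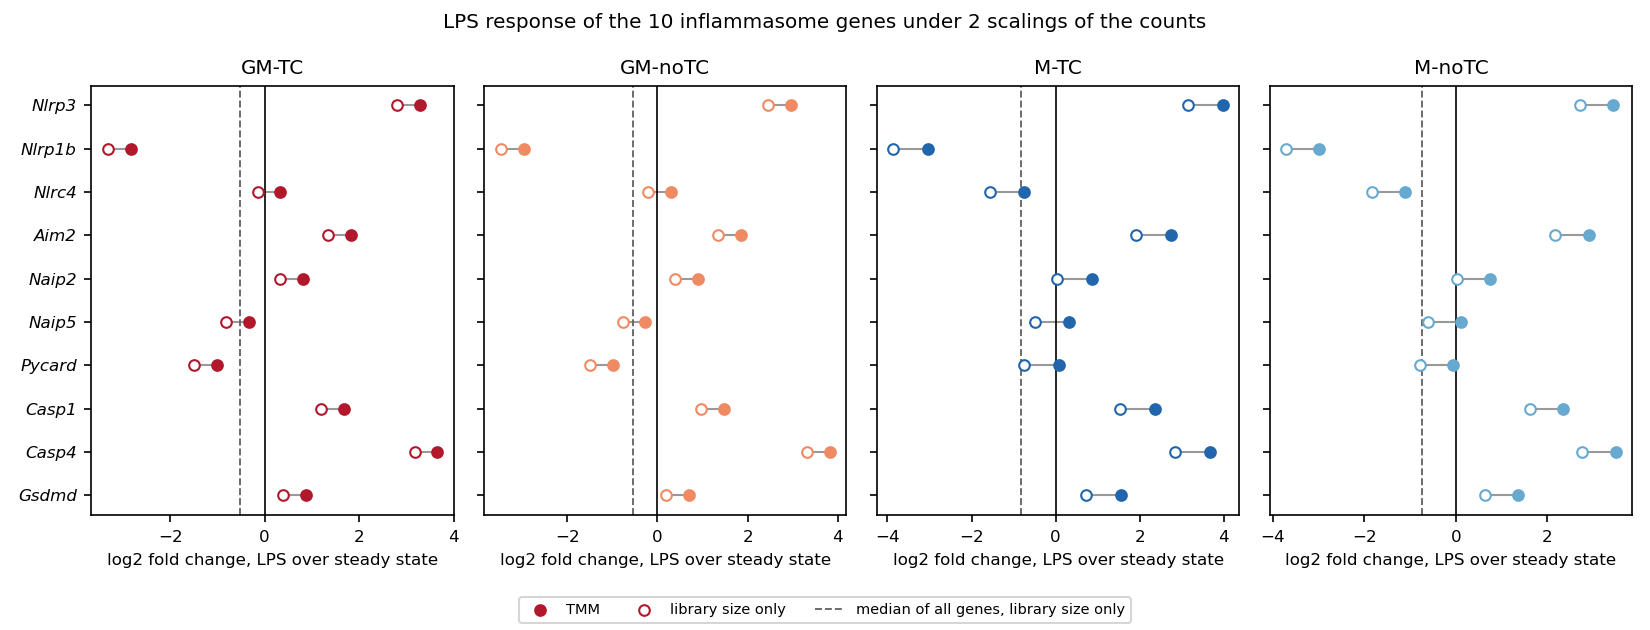
Log2 fold change upon LPS under TMM (filled) and under library size only (open) in each culture; the dashed line is the median of all genes under library size only. Nlrc4 in GM, Naip5 in M and Pycard in M-TC cross 0, while Nlrp3, Aim2, Casp1, Casp4, Gsdmd and Nlrp1b keep their direction.

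GM and M cells differed in all 10 genes at steady state. On TC, GM cells had more Pycard, Naip2, Naip5, Nlrc4 and Aim2 and less Nlrp1b, Casp4, Casp1, Gsdmd and Nlrp3, and the same 5 and 5 genes were called on noTC. Of all tested genes, 61.5% were called on TC (32.6% higher in GM and 28.9% lower) and 62.1% on noTC (31.4% and 30.7%). Pycard had the largest difference, 1.75 (SE 0.0719, adjusted p = 2.8e-15) on TC and 1.77 (SE 0.0693, adjusted p = 1.1e-15) on noTC. Nlrp1b was lower in GM by a log2 fold change of -1.49 (SE 0.141, adjusted p = 3.8e-09) on TC and -1.62 (SE 0.129, adjusted p = 2.4e-10) on noTC. The NAIP pair was higher in GM, Naip2 by 0.63 and 0.69 and Naip5 by 0.52 and 0.52 on TC and noTC (adjusted p at most 8.5e-06 from edgeR). The caspases were lower, Casp4 by -0.82 and -0.89 and Casp1 by -0.56 and -0.64. Gsdmd stood at -0.55 and -0.52, and Nlrp3 at -0.52 and -0.23. Nlrc4 (0.35 and 0.47) and Aim2 (0.26 and 0.35) had the smallest positive values. Neither passed under library size only, which moved the median of all genes by -0.29 on both dishes and Aim2 on TC to -0.051. Aim2 on TC also did not pass without M-TC replicate 2 (adjusted p = 0.067).

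After LPS, 9 of the 10 genes still differed, and the differences of Nlrc4, Casp1, Gsdmd and Nlrp3 had become larger. Of all tested genes, 66.8% were called on TC (33.9% higher in GM and 32.9% lower) and 66.1% on noTC (33.5% and 32.6%). GM cells kept more Nlrc4, 1.42 (SE 0.0984, adjusted p = 1.6e-11) on TC and 1.87 (SE 0.104, adjusted p = 2.8e-13) on noTC. They also kept more Pycard (0.65 and 0.85) and Naip2 (0.58 and 0.84). Less was found of Casp1 (-1.26 and -1.502), Nlrp1b (-1.30 and -1.61), Gsdmd (-1.22 and -1.20) and Nlrp3 (-1.21 and -0.71). Casp4 (-0.83 and -0.56) and Aim2 (-0.65 and -0.71) were lower as well, and every one of these calls had an adjusted p of at most 6.8e-04 from edgeR. Naip5 was not called, with -0.14 on TC (95% interval -0.32 to 0.034) and 0.13 on noTC (-0.046 to 0.31). The change between steady state and LPS was tested as the interaction of growth factor and LPS, the response in GM minus that in M. On TC, 7 of the 10 genes were called, Nlrc4 with a higher value in GM and 6 with a lower one, where 41.1% of all genes were called (17.8% higher and 23.3% lower). On noTC, 8 were called, Nlrc4 and Casp4 higher and 6 lower, against 36.2% (16.9% and 19.3%).

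Markers of other cells also differed between GM and M cultures, and their part in these results was not tested. Of 9 neutrophil markers, 4 were at 1 CPM or more in each GM group (S100a8, S100a9, Ngp and Ltf) and 0 in each M group. Summed levels were 12.7 to 44.7 CPM in GM libraries and 0.337 to 2.05 CPM in M libraries. Ly6g, Elane, Mpo and Retnlg had no count in M cells and were also low in GM, with group means of at most 0.348 CPM. Of 5 dendritic cell markers, Ccr7 and Zbtb46 were at 1 CPM or more in each GM group, and the summed level was 11.4 to 73.1 CPM in GM and 0.708 to 3.99 CPM in M. Most of the GM sum after LPS was Ccr7, with means of 56.0 CPM in GM-TC-LPS and 61.5 CPM in GM-noTC-LPS. Xcr1 was alike after LPS, with means of 2.10 and 2.91 CPM in GM and 2.14 and 2.81 CPM in M on TC and noTC. Flt3 and Siglech had means of at most 0.410 CPM in any group. Of 6 mast cell or basophil markers, Kit alone was at 1 CPM or more in all groups, with sums of 18.1 to 32.6 CPM in GM and 3.25 to 8.22 CPM in M, and Mcpt4 had no count in any library.

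**Figure D4:**
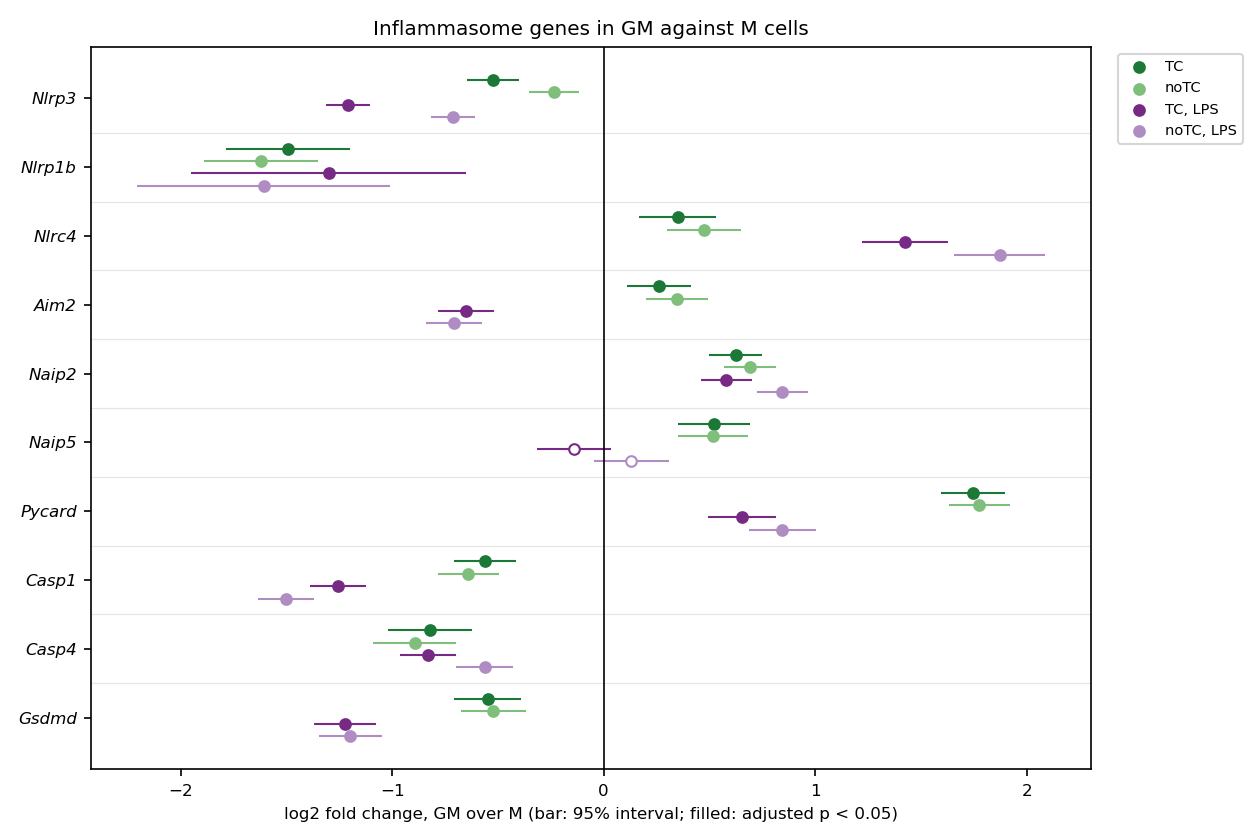
Log2 fold change of GM over M cells (x axis) for each gene on TC and noTC, at steady state and after LPS, with 95% intervals; filled points have an adjusted p under 0.05. Pycard, Naip2 and Nlrc4 lie to the right and Nlrp1b, Casp1, Casp4, Gsdmd and Nlrp3 to the left in all 4 comparisons, while Aim2 changes side between steady state and LPS (under library size only it is at -0.051 on TC at steady state).

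Few of the 10 genes were called between dishes at steady state, and in GM cells the count was near the share of all genes. In GM cells Nlrp3 alone was called, higher on noTC by 0.41 (SE 0.0600, adjusted p = 8.5e-05), where 7.54% of all genes were called (4.69% higher and 2.85% lower). In M cells Nlrp1b alone was called, higher on noTC by 0.36 (SE 0.116, adjusted p = 0.023), against 27.2% of all genes (16.1% higher and 11.1% lower). The other 9 genes lay between -0.23 and 0.24 in GM (95% bounds -0.44 to 0.55) and between -0.15 and 0.12 in M (95% bounds -0.33 to 0.24). In DESeq2 Nlrp1b missed the threshold (adjusted p = 0.13) and it also did so when any one library of the comparison was left out (adjusted p between 0.11 and 0.13). Genes nearly absent from TC libraries also had low counts in noTC libraries. In GM, 15 genes had a mean under 1 CPM in GM-TC and of 100 CPM or more over the libraries outside the steady-state GM-TC, M-TC and GM-noTC groups, and their excess in GM-noTC over GM-TC had a median of 0.675% of that latter mean. In M, 21 genes chosen likewise gave 0.600%. For Nlrp3, without TMM scaling, the excess was 13.5 CPM or 3.74% in GM and 5.52 CPM or 1.55% in M. With the median share subtracted from the steady-state noTC libraries, its log2 fold change was 0.35 in GM (adjusted p = 7.2e-04 from edgeR), and no call of the 10 genes changed in any comparison. Cardiomyocyte markers reached 1 CPM only in the steady-state TC groups, 6 of 7 in GM-TC and 7 of 7 in M-TC. In the other 6 groups, TC with LPS included, it was 0 of 7 (sums of at most 0.814 CPM against 20.8 to 57.2 CPM). On TC these markers therefore separated steady state from LPS as well as from noTC. In GM cells the summed neutrophil markers were 12.7 and 16.7 CPM in GM-TC and 24.1 and 20.2 CPM in GM-noTC, and the mast cell or basophil markers 32.6 and 28.2 CPM and 18.4 and 19.3 CPM. The part of these markers in the dish results, and in the LPS responses on TC, was not tested.

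After LPS, the dish mattered in M cells. Of the 10 genes, 6 were lower in M-noTC-LPS than in M-TC-LPS, where 12.9% of all genes were lower, 10.4% higher and 23.3% called in either direction. Nlrp3 differed by -0.41 (SE 0.0491, adjusted p = 2.8e-06) and Casp4 by -0.32 (SE 0.0634, adjusted p = 8.1e-04). These 2 kept their call in every alternative that was run with an adjusted p. Nlrc4 differed by -0.46 (SE 0.116, adjusted p = 0.0058) and Naip5 by -0.33 (SE 0.0855, adjusted p = 0.0073). Gsdmd differed by -0.26 (SE 0.0672, adjusted p = 0.0073) and Naip2 by -0.17 (SE 0.0595, adjusted p = 0.045). The calls of the other 4 depended on single libraries. Nlrc4 and Naip5 did not pass without M-TC-LPS replicate 2 (adjusted p = 0.08 and 0.07), and neither they nor Gsdmd passed without M-noTC-LPS replicate 1 (adjusted p = 0.065, 0.14 and 0.2). Without the first and the second of these libraries, 3 and 2 of the 10 genes were called. Naip2 did not pass when any one library was left out, and under library size only neither Naip2 (-0.081) nor Gsdmd (-0.17) passed. The remaining 4 genes lay between -0.13 and 0.41 (95% bounds -0.30 to 0.91), the widest being that of Nlrp1b. In GM cells after LPS, Casp1 alone was called, lower on noTC by -0.30 (SE 0.0656, adjusted p = 0.012), where 0.727% of all genes were lower, 2.08% higher and 2.8% called. It did not pass when any one library was left out (adjusted p between 0.071 and 0.15). Replicate 1 of GM-TC-LPS had a summed level of 16.03 CPM over 5 stromal markers, against at most 5.10 CPM in the other 15 libraries, whose part in the result was not tested. The LPS response itself differed between dishes for 1 gene, Nlrp3 in M cells, lower on noTC, where 10.6% of all genes were called (3.11% higher and 7.48% lower). In GM cells 0 of the 10 were called by edgeR with adjustment and 1 had an unadjusted p under 0.05, against 0.783% of all genes called (0.192% higher and 0.591% lower), and DESeq2 called 1.

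**Figure D5:**
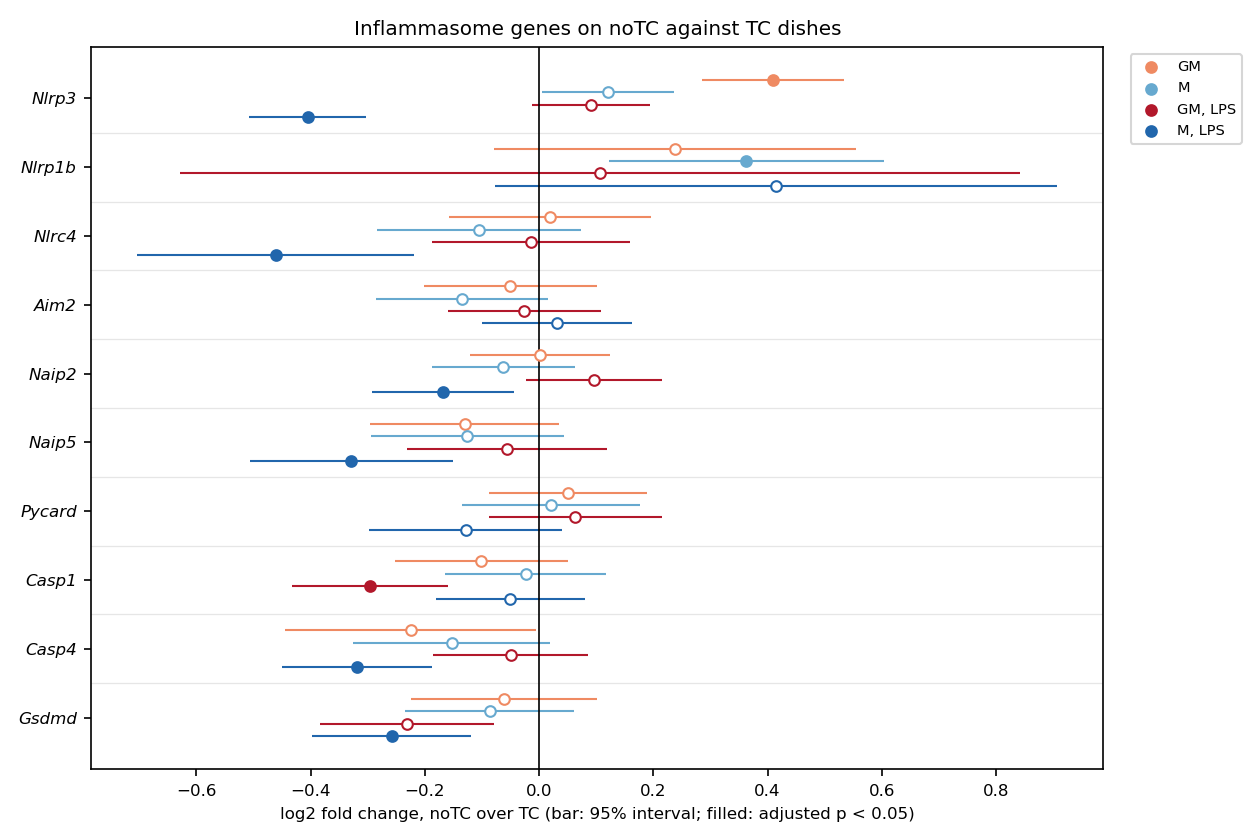
Log2 fold change of noTC over TC dishes (x axis) for each gene in GM and M cells, at steady state and after LPS, with 95% intervals; filled points have an adjusted p under 0.05. Nlrp3 is higher on noTC in GM cells at steady state and lower on noTC in M cells after LPS, and 6 of the 10 points for M cells with LPS are filled and lie to the left of 0.

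Compared per length (CPM per kilobase of the principal transcript in GENCODE M21), Casp1 had the highest mean of the 10 genes in every group except GM-noTC-LPS. There Casp4 at 93.7 and Nlrp3 at 93.4 CPM per kilobase were above Casp1 at 88.6. In GM-noTC the libraries of Casp1 and Pycard overlapped. In M-TC Casp1 stood at 50.3 CPM per kilobase, ahead of Gsdmd at 28.1 and Naip2 at 17.3, with no overlap between these neighbours. After LPS the order in M-TC-LPS was Casp1 at 259.9, Nlrp3 at 203, Casp4 at 173 and Aim2 at 99.8 CPM per kilobase, again without overlap. In GM-TC, Casp1 at 34.0, Pycard at 29.7 and Naip2 at 26.7 CPM per kilobase were neighbours whose libraries overlapped. Nlrp1b was the lowest of the 10 in GM-TC at 1.59, and fell to 0.222 CPM per kilobase with LPS. The places of Pycard, Aim2 and Casp4 depend on the length used. The principal transcript of Pycard has 3800 bases and its coding sequence 579, and those of Aim2 have 2839 and 1062. Per kilobase of coding sequence, a scale chosen after seeing the data, Pycard ranked 1 in GM-TC and 2 in M-TC, in place of 2 and 7. On that scale Aim2 was the highest in GM-TC-LPS, at 170 CPM per kilobase against 135 for Casp1. In M-TC-LPS it stood at 267, above Nlrp3 at 263 and below Casp1 at 323. The principal transcript of Casp4 has 1435 bases and its merged exons 3710. Per kilobase of merged exons, Casp4 stood at 66.7 in M-TC-LPS, below Aim2 at 80.9. In GM-noTC-LPS it stood at 36.2 on that length, below Aim2 at 50.6.

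The genes around the inflammasome were read from 4 lists. Of 17 other sensors of the NLR and pyrin families, 12 were tested and all 12 were called upon LPS in each culture. On TC 6 rose and 6 fell in GM cells and 7 rose and 5 fell in M cells, and on noTC 6 rose and 6 fell in GM cells and 7 rose and 5 fell in M cells. Of all tested genes, 67%, 74%, 67.7% and 72.3% were called in these comparisons in the same order. The median log2 fold change lay between 0.78 and 1.88, where that of all genes lay between -0.051 and -0.0061. Nod1, a sensor of bacterial peptidoglycan, changed by 2.22 in GM and 3.72 in M cells on TC, and 2.01 in GM and 4.11 in M cells on noTC. Nod2, its muramyl dipeptide-sensing relative, changed by 4.27 in GM and 4.39 in M cells on TC, and 4.198 in GM and 4.28 in M cells on noTC. The adjusted p of both were at most 1.4e-16 from edgeR. Ifi204, a relative of Aim2, rose from 47.6 and 48.3 CPM in GM-TC to 847 and 908 CPM with a log2 fold change of 4.19 (SE 0.0615, adjusted p = 4.4e-23). Mefv, which encodes pyrin, rose from 1.08 and 1.01 CPM in M-TC to 25.6 and 25.1 CPM with a log2 fold change of 4.60 (SE 0.196, adjusted p = 3.0e-17). In GM cells Mefv had at most 3 counts per library at steady state and 15.5 and 16.99 CPM in GM-TC-LPS. Nlrp1c-ps was not analysed here, and Nlrp2, Nlrp6, Nlrp9b and Nlrp12 had at most 5 counts in any library.

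Of 12 substrates and IL-1 family ligands, 8 were tested. On TC 6 rose and 1 fell in GM cells and 7 rose and 0 fell in M cells, and on noTC 7 rose and 1 fell in GM cells and 7 rose and 0 fell in M cells. In the same 4 comparisons between 32.8% and 37.6% of all tested genes were higher and between 34% and 36.4% lower. The median log2 fold change lay between 2.46 and 5.09. Il1b, whose product caspase-1 matures, rose from 7.12 and 7.33 CPM to 5945 and 6381 CPM in GM-TC and from 0.758 and 1.12 CPM to 2007 and 2197 CPM in M-TC. Unlike Casp1 and Nlrp3, it ended higher in GM than in M cells, by 1.55 (SE 0.0597, adjusted p = 1.1e-15) on TC. Il1a, the ligand of the same receptor, reached 7131 and 7433 CPM in GM-TC-LPS and 483 and 522 CPM in M-TC-LPS. Il1rn, the receptor antagonist, rose by 3.32 in GM and 6.26 in M cells on TC, and 2.75 in GM and 4.52 in M cells on noTC (adjusted p at most 4.9e-21 from edgeR). Il33 was listed at 0 in the M libraries at steady state and had 0.837 and 1.34 CPM in M-TC-LPS and 5.48 and 6.64 CPM in GM-TC-LPS.

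All 12 other caspases and death kinases were tested. On TC 6 rose and 3 fell in GM cells and 8 rose and 3 fell in M cells, and on noTC 6 rose and 4 fell in GM cells and 8 rose and 2 fell in M cells. Of all tested genes 67% to 74% were called in these comparisons, and 9 of these 12 genes on TC in GM cells is near that share. The median log2 fold change lay between 0.28 and 0.58. Cflar, which encodes the caspase-8 inhibitor cFLIP, rose by 3.58 in GM and 3.88 in M cells on TC, and 3.45 in GM and 3.74 in M cells on noTC. Mlkl, the pore former of necroptosis, rose by 1.95 in GM and 3.02 in M cells on TC, and 1.76 in GM and 2.62 in M cells on noTC. Casp9, the initiator of mitochondrial apoptosis, fell in all 4 cultures, from 48.4 and 50.05 CPM to 9.82 and 9.47 CPM in GM-TC and from 42.9 and 42.2 CPM to 9.35 and 7.79 CPM in M-TC. The SE of these values lay between 0.0676 and 0.100, and the adjusted p were at most 2.4e-15 from edgeR.

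Of 20 regulators of inflammasomes, 19 were tested. On TC 8 rose and 5 fell in GM cells and 10 rose and 6 fell in M cells, and on noTC 9 rose and 4 fell in GM cells and 10 rose and 5 fell in M cells. The 13 of 19 genes called on TC in GM cells are close to the 67% of all tested genes called there, and 67.7% to 74% were called in the other 3 comparisons. The median log2 fold change lay between 0.071 and 0.26. The guanylate-binding proteins, which open bacteria and vacuoles to caspase-11 and AIM2, gave 3 of the 4 genes of this list with the largest changes. Gbp5 rose from 7.32 and 6.60 CPM to 1955 and 1944 CPM in GM-TC and from 7.90 and 10.7 CPM to 2464 and 2622 CPM in M-TC. Gbp2 rose by 4.48 in GM and 5.81 in M cells on TC, and 4.26 in GM and 5.69 in M cells on noTC, and Gbp3 by 4.69 in GM and 5.54 in M cells on TC, and 4.40 in GM and 5.56 in M cells on noTC. Tnfaip3, which encodes the NF-kB inhibitor A20, rose by 5.52 in GM and 5.89 in M cells on TC, and 4.85 in GM and 5.47 in M cells on noTC. The adjusted p of these 4 genes were at most 1.2e-21 from edgeR. Gm12250 was not analysed here.

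The same lists were also counted between growth factors and between dishes, as genes higher and lower. GM cells against M cells on TC had 5 and 7 other sensors, 5 and 2 substrates or ligands, 6 and 3 caspases or kinases and 7 and 8 regulators at steady state. With LPS they had 3 and 7 other sensors, 4 and 3 substrates or ligands, 4 and 6 caspases or kinases and 5 and 11 regulators. GM against M on noTC gave 5 and 6 other sensors, 4 and 2 substrates or ligands, 6 and 2 caspases or kinases and 9 and 5 regulators before the challenge. After it the numbers were 4 and 8 other sensors, 4 and 4 substrates or ligands, 4 and 7 caspases or kinases and 4 and 11 regulators. Of all tested genes, 61.5% and 66.8% were called in these comparisons on TC and 62.1% and 66.1% on noTC. For noTC against TC, GM cells had 0 and 0 other sensors, 3 and 0 substrates or ligands, 0 and 0 caspases or kinases and 2 and 0 regulators at steady state. In M cells it was 3 and 2 other sensors, 3 and 1 substrates or ligands, 3 and 0 caspases or kinases and 2 and 4 regulators. With LPS, GM cells had 0 and 1 other sensors, 0 and 0 substrates or ligands, 0 and 1 caspases or kinases and 1 and 0 regulators, and M cells 2 and 5 other sensors, 0 and 1 substrates or ligands, 2 and 1 caspases or kinases and 2 and 4 regulators. Of all tested genes, 7.54% and 27.2% were called between dishes at steady state in GM and M cells, and 2.8% and 23.3% after LPS.

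Pattern likeness was taken as Pearson's r of log2 CPM across the 16 libraries, out of 9209 genes with a mean of at least 5 CPM. Nlrp3 was most like Naa25 (0.998) and Larp1 (0.998). Casp4 was most like Nfkbia (0.998) and Pnp (0.998), the first of which encodes the NF-kB inhibitor IκBα, and Aim2 most like N4bp1 (0.998) and Icam1 (0.998). Casp1 was most like Psmb10 (0.996) and D1Ertd622e (0.994), the first an immunoproteasome subunit, and Gsdmd most like Golga3 (0.993) and Keap1 (0.992). Nlrp1b was most like Phf20 (0.994) and Rab3gap2 (0.989), Naip2 like Gnai3 (0.993) and Top1 (0.992), and Pycard like Tatdn2 (0.985) and Nek6 (0.984). Nlrc4 was most like Irs2 (0.975) and Fam126a (0.975). Naip5 had no gene as close, with Ctnnb1 (0.889) and Rtl5 (0.887). The 16 points are 8 groups of 2, so these values mostly describe the group means, and they are given without a test.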

How the data were processed

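RNA-seq libraries of mouse bone marrow derived macrophages were read from the deposited gene table, whose values are expected counts made by the authors with RSEM and not normalized. Per the submitters' processing notes, reads passed fastp 0.18.0, Bowtie2 2.2.8, HISAT2 and StringTie 1.3.1, and DESeq2 and edgeR were used by the authors. The genome build and the strand setting are not given in the sources used here. Values with decimals made up 6.56% to 8.19% of the genes of a library, and every value was rounded to a whole count. Groups came from the sample titles. edgeR 4.0.16 in R 4.3.3 was fitted to all 16 libraries (filterByExpr by group, TMM, quasi-likelihood test, no block), which gave a biological coefficient of variation of 4.75%. Pairwise differences and 4 interactions were tested, with Benjamini-Hochberg adjustment over 12514 genes.

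All 10 genes are given in each comparison. From each list of related genes, up to 4 with the largest LPS response among called genes at 5 CPM or more in a group are named, as are the 2 genes most like each of the 10 in pattern. A gene that this rule also names is not reported here. The genes and lists were chosen with earlier results of these data known. Alternatives were library size only, RLE size factors, no expression filter, DESeq2 1.42.0, the libraries of the comparison only, a replicate block, a 2-fold threshold with unadjusted p, subtraction of a share of other libraries, and each replicate left out. Replicates with the same number did not deviate together (r between -0.064 and 0.020 across genes). With 2 libraries a group, the smallest two-sided p of an exact permutation test is 0.333. The fit was also run on simulated counts in which few genes changed, so that run does not test the choice of scaling. Promoters came from RefSeq on GRCm38.p6, and gene models from GENCODE M21.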

Additional observations from a re-analysis of the deposited data

Results flagged for a closer look

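The LPS response differed between GM and M cells for 7 genes on TC and 8 on noTC, by edgeR's test of the interaction. Values are the log2 fold change in GM minus that in M. Of all tested genes, 41.1% were called on TC and 36.2% on noTC, so a difference of this kind was common. The median of all genes moved under library size only from -0.041 to 0.30 on TC and from -0.02 to 0.19 on noTC. Among the sensors on TC, Nlrp3 differed by -0.68 (SE 0.0774, adjusted p = 2.4e-07), Aim2 by -0.91 (SE 0.0972, adjusted p = 9.8e-08), Nlrc4 by 1.07 (SE 0.131, adjusted p = 6.8e-07) and Naip5 by -0.66 (SE 0.117, adjusted p = 8.5e-05). Nlrc4 was the one called gene with a larger value in GM. The adaptor Pycard differed by -1.09 (SE 0.105, adjusted p = 2.3e-08), Casp1 by -0.69 (SE 0.0955, adjusted p = 3.9e-06) and Gsdmd by -0.68 (SE 0.103, adjusted p = 1.5e-05). These 7 genes kept their direction and call under library size only, with -0.34 for Nlrp3, -0.57 for Aim2, -0.32 for Naip5, -0.75 for Pycard, -0.35 for Casp1 and -0.33 for Gsdmd, and 1.42 for Nlrc4.

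On noTC dishes the same 7 genes were called in the same directions. Nlrp3 differed by -0.48, Aim2 by -1.05, Nlrc4 by 1.40, Pycard by -0.93, Casp1 by -0.86 and Gsdmd by -0.67 (adjusted p at most 2.4e-05 from edgeR). Naip5 differed by -0.39 (adjusted p = 0.012) and Casp4 by 0.33 (adjusted p = 0.026). With library size only, Nlrp3 was at -0.26, Aim2 at -0.84, Nlrc4 at 1.61, Pycard at -0.71, Casp1 at -0.64, Gsdmd at -0.46 and Casp4 at 0.55, and these passed. Naip5 did not pass under library size only (-0.17, adjusted p = 0.27), without M-noTC replicate 1 or without M-noTC-LPS replicate 2. Casp4 did not pass without GM-noTC replicate 2, M-noTC replicate 1, GM-noTC-LPS replicate 1 or M-noTC-LPS replicate 1.

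The LPS response differed between dishes for Nlrp3 in M cells, by -0.53 as noTC minus TC (SE 0.0741, adjusted p = 5.5e-05), where 10.6% of all genes were called. It was -0.42 under library size only and passed. In GM cells 0.783% of all genes and none of the 10 were called by edgeR with adjustment. Nlrp3, the one gene there with an unadjusted p under 0.05, stood at -0.32 (adjusted p = 0.063), and passed under DESeq2 (adjusted p = 0.031), under library size only (adjusted p = 0.033) and without GM-TC replicate 1 (adjusted p = 0.011).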

How the results depend on the processing

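The direction of Nlrp3, Nlrp1b, Aim2, Casp1, Casp4 and Gsdmd upon LPS and their calls held in all 4 cultures under every alternative run with an adjusted p. Under library size only, the log2 fold change turned for Nlrc4 in GM-TC (-0.15) and GM-noTC (-0.21), for Naip5 in M-TC (-0.50) and M-noTC (-0.60), for Pycard in M-TC (-0.74), and for Aim2 in GM-TC against M-TC (-0.051), where the median of all genes moves by construction. A pair of differences between GM and M responses on TC that were not called also changed sign: Naip2 (0.30 under library size only, where it passed and the median of all genes was 0.30) and Casp4 (0.34 under library size only, where it passed, 0.0066 with no expression filter and 0.0056 with the libraries of the comparison only). With a replicate left out, these lay between -0.13 and 0.059 for Naip2 and between -0.063 and 0.074 for Casp4, and Naip5 in GM-noTC against GM-TC between -0.28 and 0.028, with the sign turned without GM-TC replicate 1.

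Counts of called genes among the 10 fell most with a fold above 2 and an unadjusted p under 0.05, to 6 in GM-TC and 5 in GM-noTC for LPS, to 0 in all 4 comparisons of dishes, to 2 on both dishes at steady state and 5 and 4 after LPS for GM against M, to 2 on TC and 2 on noTC for the interaction of growth factor and LPS, and to 0 for that of dish and LPS in M. With an adjusted p and the same fold, 13.2% of all genes were higher and 8.54% lower in GM-TC than in M-TC. On noTC it was 13% and 9.2%. After LPS it was 14.9% and 10.1% on TC and 14.4% and 10.1% on noTC. For the interaction of growth factor and LPS it was 6.59% and 6.15% on TC and 5.4% and 4.91% on noTC. Shares of all genes under the alternatives in this paragraph are not given. For M-noTC against M-TC the count was 0 with DESeq2 and 2 with the libraries of the comparison only. For GM-noTC-LPS against GM-TC-LPS it was 2 with the latter. For the interaction of dish and LPS in GM it was 1 under library size only and 1 with DESeq2. With each replicate left out, a lone library is assumed to vary like the other groups. The counts were then 1 to 2 for GM-noTC against GM-TC, 0 for M-noTC against M-TC and for GM-noTC-LPS against GM-TC-LPS, 2 to 5 for M-noTC-LPS against M-TC-LPS, and 0 to 1 for the interaction of dish and LPS in GM. A replicate block, RLE size factors and the subtraction of a share changed no call of the 10 genes. The block is only a number here, since the libraries did not pair, and for LPS in GM-TC it gave 10 calls, as without it.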

Other observations

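Ratios of counts within a library do not depend on the scaling between libraries, and some are given here as values, chosen after the levels were seen. They compare reads and not molecules, since the genes differ in length. The ratio of Nlrc4 to Naip2 was 0.175 to 0.235 in the 8 steady-state libraries, 0.121 to 0.135 in GM cells after LPS and 0.0595 to 0.0773 in M cells after LPS. It was lower after LPS in each culture. The ratio of Nlrc4 to Naip5 went up in GM cells, from 0.412 to 0.508 at steady state to 0.698 to 0.741 after LPS. In M cells it went down, from 0.472 to 0.542 at steady state to 0.210 to 0.248 after LPS. Casp1 to Pycard was 0.382 to 0.452 in GM and 2.16 to 2.25 in M cells at steady state, and 2.22 to 3.04 and 10.3 to 11.6 after LPS, with no overlap between any of these ranges except where GM cells with LPS reached the steady-state level of M cells. Casp4 to Casp1 was 0.191 to 0.262 at steady state, and 0.839 to 1.01 in GM and 0.520 to 0.675 in M cells after LPS. Gsdmd to Casp1 was 0.625 to 0.712 before and 0.309 to 0.419 after LPS.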
